A study of Mus musculus with 7 samples.

Results

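Transcripts of 8 matrix metalloproteinases (Mmp2, Mmp3, Mmp9, Mmp10, Mmp11, Mmp12, Mmp13 and Mmp14) and of the inhibitors Timp1 and Timp3 were followed through mammary tumours of ECD transgenic mice and control mammary glands. They are 10 of the 50600 genes counted, picked by gene symbol with earlier results of these data known. The whole family in the tables has 27 genes, 23 Mmp and 4 Timp. The 4 tumours were 2 adenosquamous carcinomas (tumours 1a and 1b), a spindle cell carcinoma (tumour 3) and a papillary carcinoma (tumour 4), and the 3 control glands are called glands 1, 2 and 3. RNA came from a central piece of each tumour or from the gland. The sources used here do not give the strain, age or sex, the promoter and species of the ECD transgene, the genotype of the controls, or whether tumours 1a and 1b share an animal.

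Metalloproteinases are zinc enzymes that cut proteins of the extracellular matrix, and most are secreted as inactive proenzymes. A propeptide cysteine holds the zinc until it is displaced, by plasmin, by another metalloproteinase or, in Mmp11 and Mmp14, by furin. Timp proteins bind the active site and block it. In the normal mammary gland these enzymes take part in duct branching and in the remodelling after weaning.

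Total counts ran from 5420572 to 28638194 in the tumours and from 5148436 to 35631302 in the glands, of which mitochondrial genes took 18.34% to 32.61% in tumours and 48.36% to 64.83% in glands. Levels are given as CPM, counts per 1000000 after TMM scaling of the libraries. Summed CPM of 10 mammary epithelial markers was 1355 to 1757 in tumours and 246.6 to 468.6 in glands, with Krt17 at 0 in gland 1. The markers did not move together. Krt8, Krt14, Krt5 and Krt17 lay above every gland in tumours 1a and 1b, and Elf5 below every gland. In tumour 1a Krt14, Krt5 and Krt17 had 854.9, 389.2 and 225.4 CPM. Epcam and Krt18, at 59.2 and 42.8 CPM there, lay within the range of the glands. The 10 squamous keratinocyte markers summed to 539.1 and 529.4 CPM in tumours 1a and 1b, 44.8 and 20.6 CPM in tumours 3 and 4 and 3.53 to 7.07 CPM in glands, with the cornified envelope gene Lor at 0 in every tumour and gland. The 10 fat cell markers summed to 23.6 to 172.3 CPM in tumours and 3316 to 6702 CPM in glands. The 10 skeletal muscle markers summed to 2.47 to 238.9 CPM in tumours, while glands 1 and 3 had 14580 and 30340 CPM and gland 2 had 24.7 CPM. In whole tissue, fewer cells of a type and less RNA per cell cannot be told apart.

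Most members had their highest levels in the adenosquamous tumours. Against the glands, Mmp9, Mmp10, Mmp12, Mmp13, Mmp14 and Timp1 rose in the adenosquamous tumours by edgeR's quasi-likelihood test with Benjamini-Hochberg adjustment. That is 6 of 10 members higher and 0 lower, where 10.4% of the 14708 genes tested passed in either direction, 5.01% as higher and 5.36% as lower. Mmp10, Mmp13 and Timp1 held 0, 4 and 26 counts in the glands. They passed the count filter only through the tumours, so they could be called only as higher. A further member, Mmp3, made 7 of 10 at unadjusted p under 0.05, where 29.9% of genes were. In 7 of 10 both adenosquamous tumours lay above every gland, where 28.2% of genes had that order, and Timp3 alone had both below every gland, where 23.3% did. The median log2 fold change of the 10 members was 4.66, against -0.04 over all genes tested. The members were chosen with earlier results of these data known, so these shares only describe them. Of the 17 other family genes, 9 were tested here. Of these 0 rose and 1 fell, with a median of -0.26. Over all 4 tumours only Mmp13 passed in edgeR, 1 of the 9 members tested, where 8.47% of 14149 genes passed, 3.9% as higher and 4.57% as lower. Mmp10 was under the count filter there, and Mmp13 and Timp1 again passed it only through the tumours. The median of the 9 members was 2.42, against 0.12 over all genes tested, and 5 of the 9 were at unadjusted p under 0.05, where 28.9% of all genes were. Mmp12, Mmp13 and Timp1, 3 of the 9, had every tumour above every gland, where 16.3% of genes did.

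These counts rest on few libraries; where 1 adenosquamous tumour was left, it was assumed to vary as the glands do. In the adenosquamous comparison no member passed in edgeR without gland 3 or without tumour 1b, where no gene of any kind passed (7 and 8 members at unadjusted p under 0.05, where 24.7% and 17.2% of genes were). Without tumour 1a only Mmp12 and Mmp13 passed, where 0.523% of genes did. Without gland 1, Mmp9, Mmp13, Mmp14 and Timp1 passed, where 4.2% of genes did, and without gland 2 these and Mmp10, where 10.8% did. Over all 4 tumours no member passed without any 1 gland, without tumour 1a or without 1b (3 to 5 at unadjusted p under 0.05, where 20.8% to 26.2% of genes were). There 0.654% to 5.9% of genes passed. Without tumour 3, 2 members passed, where 3.84% of genes did, and without tumour 4, 3 members, where 9.88% did.

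**Figure D1:**
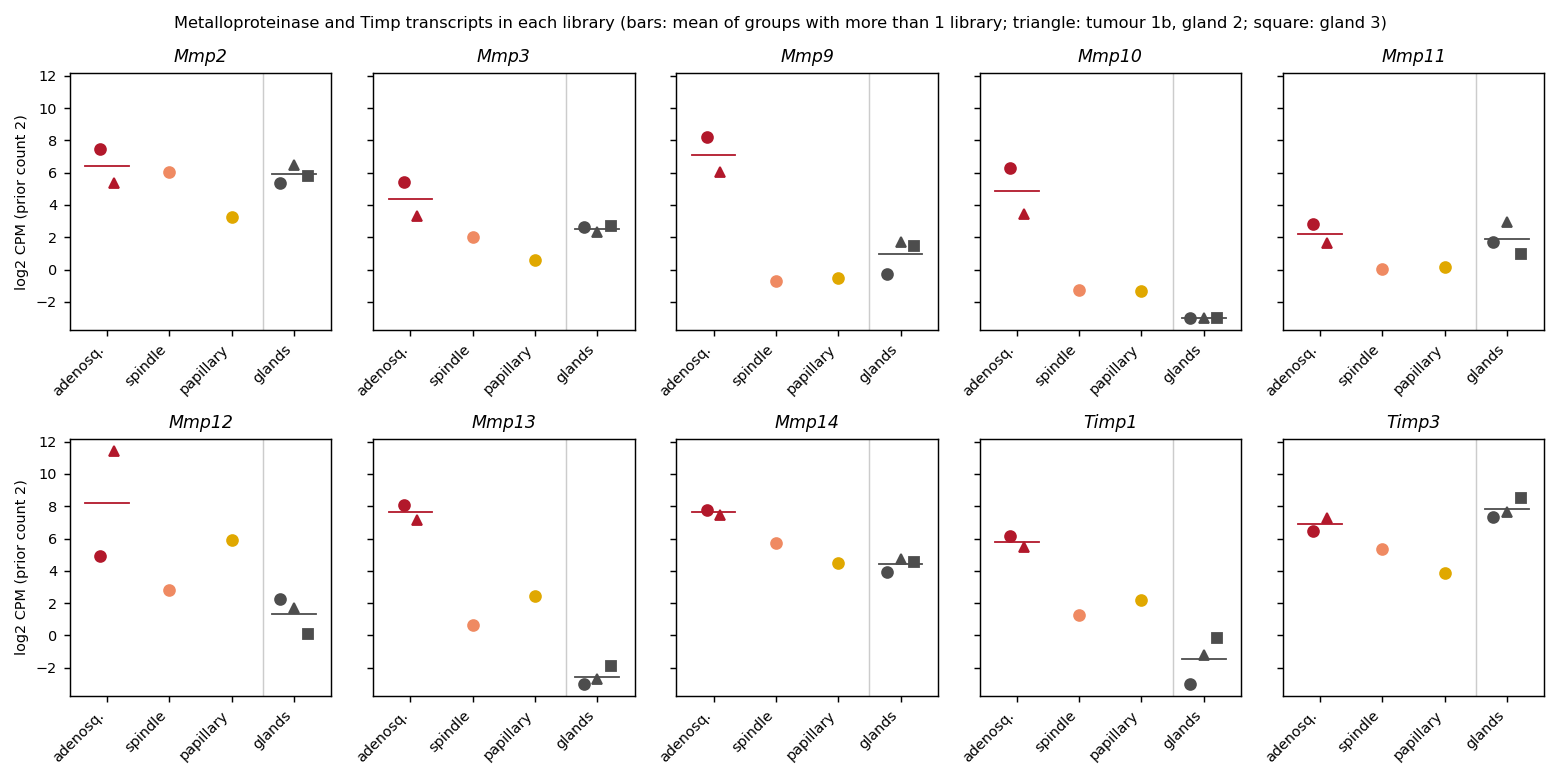
Each panel gives log2 CPM (prior count 2) of 1 gene in every library, with the adenosquamous, spindle cell and papillary tumours left of the control glands; bars are means of groups with more than 1 library. Mmp13, Mmp12 and Timp1 lie above every gland in all 4 tumours, and Timp3 lies below every gland.

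Mmp13 (ENSMUSG00000050578, chromosome 9, 7272514 to 7283331, GRCm38) encodes a collagenase that cuts fibrillar collagen. It had 269.6 and 144.8 CPM in adenosquamous tumours 1a and 1b, 1.48 CPM in the spindle cell tumour and 5.40 CPM in the papillary tumour, against 0, 0.0315 and 0.142 CPM in glands 1, 2 and 3. Every tumour was above every gland, and tumours 1a and 1b stood far above tumours 3 and 4. The 3 glands together held 4 counts and tumours 1a and 1b held 4231, a pooled ratio of 3082 with a 95% counting interval of 1203 to 11320. The fitted log2 fold change was 11.27 (SE 0.73, adjusted p = 0.0170) for the adenosquamous tumours and 10.34 (SE 2.45, adjusted p = 0.0444) for all 4. Against the glands alone, the papillary tumour was 93.3 times and the spindle cell tumour 25.5 times the gland mean, without a test. Mmp13 is also made by bone and cartilage cells. The 10 osteoblast and chondrocyte markers summed to 48.5 and 116.2 CPM in tumours 1a and 1b, 22.2 and 227.6 CPM in tumours 3 and 4 and 1.99 to 15.9 CPM in glands. A single marker, Col9a1, made up 15.8 and 225.4 CPM of the sums in tumours 3 and 4. It had 4.51 and 26.7 CPM in tumours 1a and 1b and 1.14 to 13.8 CPM in glands. Of the 10, 5 were tested in the adenosquamous comparison and 1 rose, Ibsp, a gene of bone matrix, which had 4.51 and 8.57 CPM in tumours 1a and 1b and 0 in every gland. Of all genes tested there, 5.01% rose. Ibsp, Dmp1, Col2a1 and Col10a1 lay above every gland in both tumours, with Dmp1 at 69.9 CPM in tumour 1b and Col10a1 at 30.1 CPM in tumour 1a. Bglap and Sost were at 0 in tumours 1a, 1b and 3. The part of such cells in the level of Mmp13 was not tested.

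Mmp3 and Mmp10 encode stromelysins, enzymes of broad substrate range that also activate other proenzymes. Mmp10 (ENSMUSG00000047562, chromosome 9, 7502352 to 7510240) had 78.5 and 10.6 CPM in tumours 1a and 1b, 0.296 CPM in the spindle cell tumour and 0.279 CPM in the papillary tumour, and no count in any gland. Against a floor of 3 counts over the 3 glands, its pooled level was 971 times higher in the adenosquamous tumours and 324 times higher over all tumours. The lower limits of the counting intervals were 788 and 263. These pooled ratios rest mostly on tumour 1a. Against the same floor, the ratio was 1456 in tumour 1a, 197 in tumour 1b and 5.17 in tumour 4. In a separate estimate, the edgeR fit, Mmp10 rose in the adenosquamous tumours (log2 12.36, SE 1.72, adjusted p = 0.0328). Its call in the adenosquamous comparison was lost in limma-voom and without gland 1, gland 3, tumour 1a or tumour 1b, and kept without gland 2.

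Mmp3 (ENSMUSG00000043613, chromosome 9, 7445822 to 7455975) had 43.5 and 9.79 CPM in tumours 1a and 1b, 3.84 and 1.39 CPM in tumours 3 and 4, and 6.01, 4.85 and 6.31 CPM in glands 1, 2 and 3. Tumours 1a and 1b were above every gland and tumours 3 and 4 below every gland. Neither comparison passed (adenosquamous log2 2.17, SE 0.63, adjusted p = 0.0797; all tumours log2 1.36, SE 1.06, adjusted p = 0.430). The deposited counts of Mmp3 and Mmp10 were not whole in tumours 1a and 1b, and their sums were whole: 511.03 and 921.97 made 1433 in tumour 1a, and 72.47 and 77.53 made 150 in tumour 1b. Reads were thus divided between these genes, so the split between them is uncertain. Their summed count, a test added after seeing the data, passed in the adenosquamous comparison (log2 3.59, SE 0.73, adjusted p = 0.0379).

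These genes belong to a cluster of 10 Mmp genes that spans 427 kb of chromosome 9, from the start of Mmp13 (7272514) to the end of Mmp7 (7699585). In this order it holds Mmp13, Mmp12, Mmp1b, Mmp3, Mmp1a, Mmp10, Mmp8, Mmp27, Mmp20 and Mmp7. The 250 bases before the RefSeq transcription start (GRCm38.p6) of 3 cluster members and of 2 members on other chromosomes are printed here. The 3 cluster members all held the AP-1 motif, so they do not stand for the whole cluster. Capitals mark the AP-1 motif TGANTCA, bound by Fos and Jun proteins, and the ETS motif AGGAAG, bound by factors such as Etv4, each searched on both strands; the motifs did not overlap.

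Mmp13, chr9:7272264-7272513, + strand: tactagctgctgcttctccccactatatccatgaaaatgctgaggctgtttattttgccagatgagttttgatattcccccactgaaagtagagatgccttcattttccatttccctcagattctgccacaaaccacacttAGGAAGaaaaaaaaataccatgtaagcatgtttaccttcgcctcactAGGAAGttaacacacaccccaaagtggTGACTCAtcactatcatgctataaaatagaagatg
Mmp3, chr9:7445572-7445821, + strand: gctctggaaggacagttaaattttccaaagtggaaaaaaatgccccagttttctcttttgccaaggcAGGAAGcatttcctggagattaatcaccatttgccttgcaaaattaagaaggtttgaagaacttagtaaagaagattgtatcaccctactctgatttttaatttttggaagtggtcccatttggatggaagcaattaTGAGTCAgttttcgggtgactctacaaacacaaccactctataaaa
Mmp10, chr9:7502092-7502341, + strand: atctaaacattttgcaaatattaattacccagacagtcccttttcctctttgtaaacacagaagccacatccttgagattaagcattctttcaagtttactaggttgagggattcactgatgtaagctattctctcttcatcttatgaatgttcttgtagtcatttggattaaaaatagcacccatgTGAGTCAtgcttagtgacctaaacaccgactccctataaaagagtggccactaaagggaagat
Mmp14, chr14:54431348-54431597, + strand: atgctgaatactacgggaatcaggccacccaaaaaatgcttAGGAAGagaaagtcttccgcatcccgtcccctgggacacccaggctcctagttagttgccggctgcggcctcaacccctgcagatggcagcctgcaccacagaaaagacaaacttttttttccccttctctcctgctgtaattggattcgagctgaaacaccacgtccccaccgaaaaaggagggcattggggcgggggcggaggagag
Timp1, chrX:20869916-20870165, + strand: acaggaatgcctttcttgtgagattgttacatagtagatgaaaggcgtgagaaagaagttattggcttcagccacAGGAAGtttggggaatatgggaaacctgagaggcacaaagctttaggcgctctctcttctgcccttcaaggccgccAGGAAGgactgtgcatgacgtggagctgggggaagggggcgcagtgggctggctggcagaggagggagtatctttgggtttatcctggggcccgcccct

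The AP-1 motif began 35 bases before the start in Mmp13, 46 in Mmp3 and 63 in Mmp10. RefSeq windows were matched for 8 of the 10 members, and the motif was found for 4 of these, Mmp3, Mmp10, Mmp13 and 1 of the 2 windows of Mmp12. Over the family, 22 genes had a window and 8 held the motif, all 8 of them among the 10 cluster genes. Of 32536 mouse promoter windows of this length, 6.73% held TGANTCA and 29.6% held AGGAAG. The 8 include Mmp7, Mmp20 and Mmp1b, which stayed under 1 CPM in every library. No match in Mmp14 and Timp1 says only that these letters are not in these windows.

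Levels differed from gene to gene within the cluster. Mmp1a, a collagenase gene, had 63 counts (5.36 CPM) in tumour 1a and 0 in every other library. Mmp8, the neutrophil collagenase gene, had 0.936 and 12.4 CPM in tumours 1a and 1b, 0.0985 and 2.72 CPM in tumours 3 and 4, and 0, 0 and 0.237 CPM in glands 1, 2 and 3 (adenosquamous adjusted p = 0.0721). Mmp27 was lower in every tumour than in any gland, with at most 0.408 CPM in any tumour and 6.01, 2.40 and 0.711 CPM in glands 1, 2 and 3 (adenosquamous adjusted p = 0.136). Yap1 (7931999 to 8004596), which encodes a growth-promoting co-activator, lies on the other strand. Its end nearer to the cluster is 659 kb beyond the start of Mmp13. Yap1 had 560.1 and 51.8 CPM in tumours 1a and 1b, 49.9 and 43.4 CPM in tumours 3 and 4, and 29.7, 32.5 and 46.2 CPM in glands 1, 2 and 3. Birc2 and Birc3, genes of apoptosis inhibitors between Mmp7 and Yap1, had 164.9 and 136.1 CPM in tumour 1a, at most 25.4 and 19.6 CPM in the other tumours and at most 38.5 and 25.03 CPM in glands. Their counts in tumour 1a, 1936.91 and 1599.09, were not whole while their sum was, so the split between them is uncertain.

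Within 1 Mb to each side of the stretch from Mmp13 to Yap1, 15 genes had a gland mean of at least 1 CPM. In tumour 1a, 7 of the 15 were over 4 times the gland mean (Mmp12, Mmp3, Tmem123, Birc2, Birc3, Yap1 and 9230110C19Rik), and the median ratio was 3.6. In tumour 1b and in tumour 4 only Mmp12 passed that ratio, and in tumour 3 none did; the median ratios were 0.683 in tumour 1b, 0.648 in tumour 3 and 0.427 in tumour 4. Farther out, Trpc6 and Pgr, the progesterone receptor gene, were at 0.406 and 0.0534 times the gland mean in tumour 1a. Arhgap42, a chromosome 9 gene not among the 15, had 186.3 CPM in tumour 1a and 27.8 to 59.8 CPM in glands. In tumours 1b, 3 and 4 it had 31.0, 33.1 and 37.4 CPM. The part of the neighbouring genes' level in the Mmp values of tumour 1a was not tested.

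**Figure D2:**
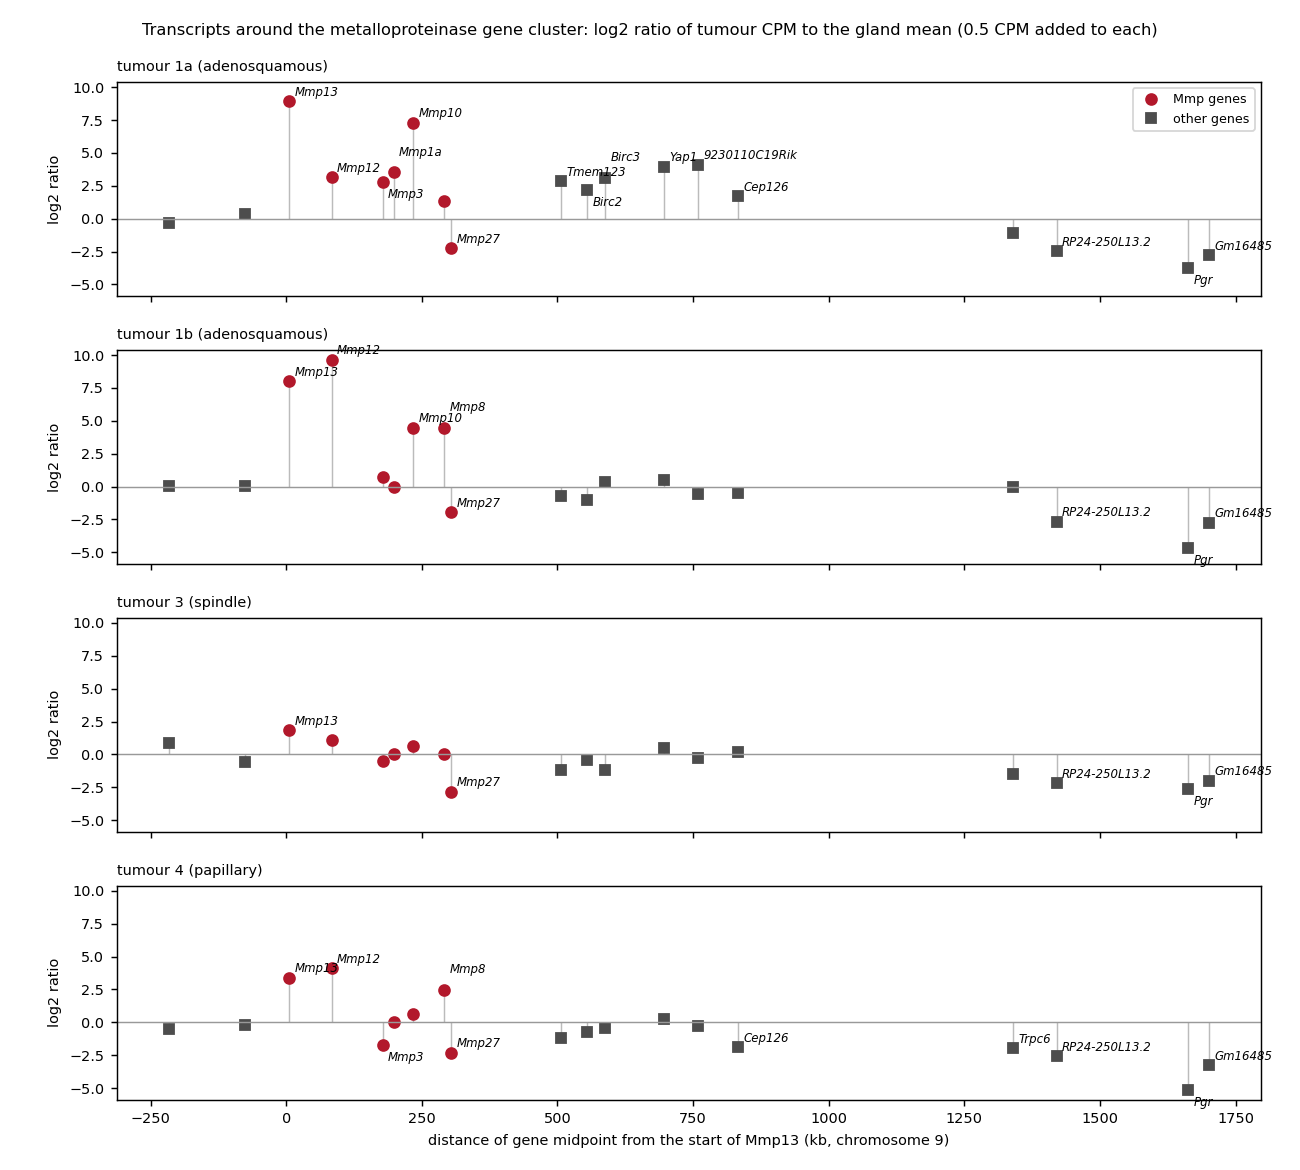
Points give the log2 ratio of each tumour's CPM to the gland mean (0.5 CPM added to each) for genes around the Mmp cluster that reach 1 CPM in some library, placed by the distance of the gene's midpoint from the start of Mmp13 in kb. Tmem123, Birc2, Birc3 and Yap1 are at 2.21 to 3.94 in tumour 1a and at -1.22 to 0.51 in the other tumours, and Mmp13 is at 8.92 and 8.02 in tumours 1a and 1b.

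The gelatinases Mmp2 and Mmp9 cut denatured collagen and basement membrane collagen. Mmp9 (ENSMUSG00000017737, chromosome 2, 164940780 to 164955850) had 297.7 and 64.5 CPM in the adenosquamous tumours 1a and 1b, 0.493 and 0.557 CPM in tumours 3 and 4, against 0.707, 3.12 and 2.61 CPM in glands 1, 2 and 3. The adenosquamous tumours lay above every gland, and the spindle cell and papillary tumours below every gland. It rose 73.9-fold in the adenosquamous tumours (log2 6.21, SE 0.83, adjusted p = 0.0196). The log2 difference was 4.73 without tumour 1a (adjusted p = 0.0585) and 6.97 without tumour 1b (adjusted p = 0.0557). Mmp9 did not pass over all 4 tumours (log2 5.29, SE 2.23, adjusted p = 0.167; log2 1.07 in limma-voom and 3.25 without tumour 1a).

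Mmp9 is also a neutrophil and macrophage gene. S100a8, a neutrophil and keratinocyte protein, had 10.9 and 28.0 CPM in tumours 1a and 1b, at most 0.418 CPM in tumours 3 and 4 and at most 1.06 CPM in glands. The 10 neutrophil markers summed to 40.6 and 224.2 CPM in tumours 1a and 1b, 2639 and 651 CPM in tumours 3 and 4 and 120.5 to 257.6 CPM in glands. Of the 10, 4 were tested in the adenosquamous comparison and 2 rose, S100a8 and its partner gene S100a9, which had 9.53 and 21.6 CPM in tumours 1a and 1b and at most 0.0948 CPM in glands. Of all genes tested there, 5.01% rose. Cxcr2, a chemokine receptor of neutrophils, had 8.94 and 5.31 CPM in tumours 1a and 1b, above every gland. Ltf, a secreted protein also made by mammary epithelium, had 9.96 CPM in tumour 1a and made up most of the sum in every other library. The granule genes Ngp and Camp were at most 0.17 CPM in every library, and Ly6g was at 0 in all. The part of neutrophils in the level of Mmp9 was not tested.

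Mmp2 (ENSMUSG00000031740, chromosome 8, 92827291 to 92853420) did not follow Mmp9. It had 179.2 and 40.8 CPM in tumours 1a and 1b, 66.1 and 9.44 CPM in tumours 3 and 4, and 41.4, 89.8 and 56.2 CPM in glands 1, 2 and 3. Tumours lay on both sides of the glands, and neither comparison passed (adenosquamous log2 0.76, SE 0.65, adjusted p = 0.471; all tumours log2 0.24, SE 0.83, adjusted p = 0.875). Without tumour 1a both differences turned negative.

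Mmp12 (ENSMUSG00000049723, chromosome 9, 7344381 to 7369499) encodes the macrophage elastase. It had 2758 CPM in adenosquamous tumour 1b, 30.1 CPM in tumour 1a, 6.80 CPM in the spindle cell tumour and 59.1 CPM in the papillary tumour, against 4.60, 3.18 and 0.948 CPM in glands 1, 2 and 3. All 4 tumours were above all 3 glands, and 1 library, tumour 1b, held most of the signal. In it Mmp12 made up 83.3% of the CPM of all 23 Mmp genes. Mmp12 rose in the adenosquamous tumours (log2 8.89, SE 1.93, adjusted p = 0.0427), and this call was lost in limma-voom, without any 1 gland and without tumour 1b. The log2 difference without tumour 1b was 3.43. Over all 4 tumours it did not pass (255-fold, log2 SE 2.55, adjusted p = 0.0927).

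Macrophage markers were also at their highest sum in tumour 1b. All 10 were detected in every tumour, and they summed to 689.1 and 2589 CPM in tumours 1a and 1b, 138.4 and 412.8 CPM in tumours 3 and 4 and 111.4 to 290.5 CPM in glands. Of the 10, 6 rose in the adenosquamous tumours (Cd68, Itgam, Lyz2, C1qa, C1qb and Fcgr1), where 5.01% of all genes rose. In tumours 1a and 1b, Lyz2, a lysozyme gene, had 291.7 and 1793 CPM, the integrin gene Itgam 33.2 and 206.8 CPM and Cd68 48.8 and 115.5 CPM. Csf1r, the receptor for macrophage growth factor, had 93.8 and 85.2 CPM and Fcgr1 6.72 and 6.26 CPM. The part of macrophages in the level of Mmp12 was not tested. Exons of Mmp12 overlap those of Mmp1b on the other strand, and Mmp1b had at most 0.255 CPM in any library.

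Mmp14 (ENSMUSG00000000957, chromosome 14, 54431612 to 54445364) encodes a membrane-bound enzyme that cuts collagen and activates the proenzyme of Mmp2. It had 215.9 and 178.2 CPM in tumours 1a and 1b, 53.1 CPM in the spindle cell tumour and 21.9 CPM in the papillary tumour, against 15.2, 26.6 and 23.5 CPM in glands 1, 2 and 3. The adenosquamous tumours averaged 197.1 ± 26.7 CPM (SD, n = 2) and the glands 21.8 ± 5.91 CPM (SD, n = 3), and Mmp14 rose 8.63-fold (log2 3.11, SE 0.33, adjusted p = 0.0183). The papillary tumour lay within the range of the glands, and the comparison of all 4 tumours did not pass (log2 2.42, SE 0.79, adjusted p = 0.0978).

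Mmp11 (ENSMUSG00000000901, chromosome 10, 75923222 to 75936496), the stromelysin 3 gene expressed by stromal fibroblasts, was low everywhere. It had 6.89 and 2.99 CPM in tumours 1a and 1b, 0.887 and 1.01 CPM in tumours 3 and 4, and 3.18, 7.63 and 1.85 CPM in glands 1, 2 and 3. Tumours 3 and 4 were below every gland, tumours 1a and 1b within their range, and no comparison passed (all tumours log2 -0.54, SE 0.84, adjusted p = 0.702). Its exons overlap those of Chchd10 on the other strand, which had 5.58 to 25.7 CPM in tumours and 108.6 to 140.0 CPM in glands; strand was not marked.

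The 10 fibroblast markers summed to 4294 and 1464 CPM in tumours 1a and 1b, 358 and 177.9 CPM in tumours 3 and 4 and 440.7 to 1237 CPM in glands, all detected in every library. Of the 10, Col1a1 and Fbln2 rose in the adenosquamous tumours, where 5.01% of all genes rose. Pdgfrb, Col1a1 and Fbln2 lay above every gland in both tumours, and Fap and Lum below every gland. Tumour 1b had 58.4 CPM of Pdgfrb, 602 CPM of Col1a1, 387.1 CPM of Fbln2 and 12.5 CPM of the fibroblast receptor gene Pdgfra, against 15.2 to 40.8, 25.8 to 83.7, 13.8 to 35.6 and 41.4 to 120.7 CPM in glands. The part of fibroblasts in the Mmp levels was not tested.

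**Figure D3:**
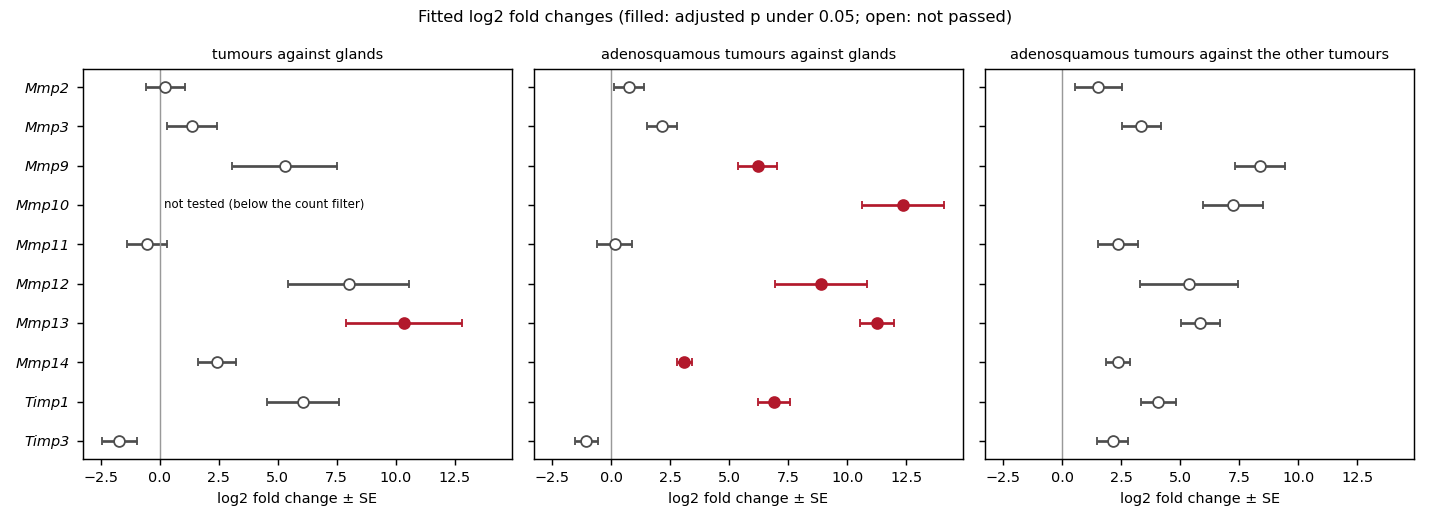
Fitted log2 fold changes with SE for the 10 members in 3 comparisons; filled points passed at an adjusted p under 0.05 in edgeR and open points did not. The fitted value of Mmp10 against glands depends on the prior count, since no gland held a count of it.

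Timp1 lay above the glands and Timp3 below them in all 4 tumours. Timp1 (ENSMUSG00000001131, chromosome X, 20870166 to 20874735), which blocks most secreted metalloproteinases and also acts as a growth factor, had 71.0 and 43.8 CPM in tumours 1a and 1b, 2.27 CPM in the spindle cell tumour and 4.39 CPM in the papillary tumour, against 0, 0.315 and 0.758 CPM in glands 1, 2 and 3. Every tumour was above every gland. It rose in the adenosquamous tumours (log2 6.90, SE 0.67, adjusted p = 0.0183) and did not pass over all 4 tumours (log2 6.06, SE 1.54, adjusted p = 0.0528). The glands held 26 counts in all and the tumours 1305. Timp1 lies within Syn1 on the other strand, without exon overlap, and Syn1 had at most 1.36 CPM.

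Timp3 (ENSMUSG00000020044, chromosome 10, 86300372 to 86349506) encodes the inhibitor that stays bound to the matrix and also blocks ADAM proteases. It had 88.1 and 157.0 CPM in tumours 1a and 1b, 40.1 and 14.6 CPM in tumours 3 and 4, and 159.5, 202.8 and 370.7 CPM in glands 1, 2 and 3. Every tumour was below every gland, with tumour 1b only just below gland 1. Of all genes tested, 13.2% had every tumour below every gland. The difference did not pass over all tumours (log2 -1.71, SE 0.74, adjusted p = 0.175) or in the adenosquamous tumours (log2 -1.05, SE 0.49, adjusted p = 0.212). The spindle cell tumour was at 0.164 and the papillary tumour at 0.0598 of the gland mean. Its exons overlap Syn3 on the other strand, which had at most 1.42 CPM.

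Timp4, the inhibitor gene of fat and muscle, was the 1 family gene that fell. It had 0.170, 0, 0.197 and 0.209 CPM in tumours 1a, 1b, 3 and 4, against 14.2, 14.8 and 19.8 CPM in glands 1, 2 and 3. It fell by 6.61 on the log2 scale over all tumours (SE 0.59, adjusted p = 0.00675) and by 7.28 in the adenosquamous tumours (SE 0.77, adjusted p = 0.0183). Of the fat cell markers, 8 of 10 fell over all tumours, among them Adipoq and Lep, where 4.57% of all genes fell. Of the skeletal muscle markers 0 of 10 fell in edgeR (10 at unadjusted p under 0.05, where 28.9% of all genes were). The part of fat and muscle cells in the fall of Timp4 was not tested. Exons of Timp4 overlap those of Syn2 on the other strand, which had at most 0.408 CPM in tumours and 2.30 to 7.06 CPM in glands, and the counts do not tell the strands apart. Timp2, which also takes part in activating the Mmp2 proenzyme, had 156.0 and 87.6 CPM in tumours 1a and 1b, 40.4 and 24.8 CPM in tumours 3 and 4, and 56.6 to 104.0 CPM in glands (all tumours adjusted p = 0.955).

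Levels of different genes were compared per kb of merged exons. The choice of length matters. With the longest transcript, the mean over the 4 tumours was 36.2 CPM per kb for Mmp14, against 19.7 (SD 15.8) with merged exons. For Timp3 it was 15.9, against 9.20. The orders and sums below were not recomputed with that length. In tumour 1a Mmp13 was the highest of the 12 genes so scaled (the members, Timp2 and Timp4), at 100.9 CPM per kb, followed by Mmp9 at 84.1 and Timp1 at 79.9. In tumour 1b Mmp12 led at 381.1 CPM per kb, followed by Mmp13 at 54.2 and Timp1 at 49.3. Mmp2 led in the spindle cell tumour at 19.6 CPM per kb, and Mmp12 in the papillary tumour at 8.17 CPM per kb. Timp3 led in glands 1 and 3 at 19.6 and 45.5 CPM per kb and Timp2 in gland 2 at 26.7 CPM per kb, where Mmp2 at 26.6 was almost level. The 8 Mmp members summed to 2.68, 5.58, 1.83 and 1.38 times the 4 Timp genes in tumours 1a, 1b, 3 and 4, against 0.552, 0.696 and 0.363 times in glands 1, 2 and 3. Summed transcripts of the 8 Mmp members thus exceeded summed Timp transcripts in every tumour and in no gland. Other Mmp genes were left out of these sums. Among them Mmp15, Mmp16 and Mmp19 reached 15.7, 36.4 and 30.0 CPM in glands and 69.5, 19.9 and 68.6 CPM in tumours. The whole family was not summed per kb. In tumours 3 and 4 the sums of the 8 Mmp members, 32.8 and 18.1 CPM per kb, were close to the glands' 20.1 to 37.9. The Timp sums there, 17.9 and 13.2, were below the glands' 36.5 to 70.7. These sums are transcripts, not active enzyme.

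**Figure D4:**
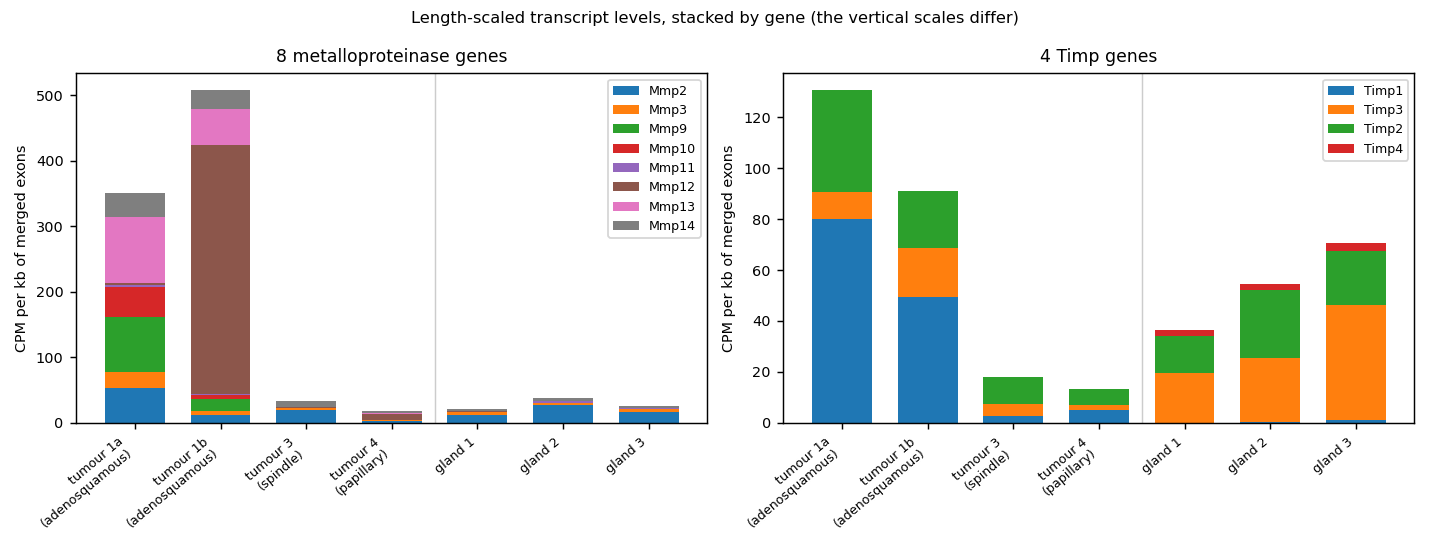
Stacked bars give CPM per kb of merged exons for the 8 Mmp members and, on another vertical scale, for the 4 Timp genes, in the tumours and then the glands. Mmp12 fills most of the bar of tumour 1b, Timp1 most of the Timp bars of tumours 1a and 1b, and Timp3 with Timp2 most of those of the glands.

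The adenosquamous tumours were also set against the spindle cell and papillary tumours, in a fit with the glands as the other group. No member passed in edgeR, where 0% of 15282 genes passed, but 9 of 10 were at unadjusted p under 0.05, where 16.8% of genes were, and all 9 were higher. DESeq2 called 8 of the 10, where it called 9.97% of all genes, and limma-voom 0 (7 at unadjusted p under 0.05, where 18.1% of genes were). The smallest values were those of Mmp9 (log2 8.36, SE 1.06, adjusted p = 0.0601), Mmp13 (log2 5.84, SE 0.83, adjusted p = 0.0747) and Timp1 (log2 4.06, SE 0.74, adjusted p = 0.0903). Timp3, lower than the glands in every tumour, was higher in tumours 1a and 1b than in tumours 3 and 4 (log2 2.14, SE 0.65, adjusted p = 0.187). In 8 of 10 members tumours 1a and 1b were both above tumours 3 and 4, where 24.8% of genes had that order; the exceptions were Mmp2 and Mmp12. In 0 of 10 were both below, where 24.9% of genes had that order.

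Of the 17 family genes that are not members, 8 stayed under 5 CPM in every library, and Mmp21 had no count in any. Among those that reached it, Mmp15, a membrane-bound enzyme, had 69.5 CPM in the spindle cell tumour, 10.5, 11.2 and 12.7 CPM in tumours 1a, 1b and 4 and 6.72 to 15.7 CPM in glands. Mmp16, also membrane-bound, had 1.48 to 19.9 CPM in tumours and 3.84 to 36.4 CPM in glands. Mmp19 had 15.3 and 68.6 CPM in tumours 1a and 1b, 0.493 CPM in the spindle cell tumour and 7.14 CPM in the papillary tumour, against 18.8 to 30.0 CPM in glands. Mmp28 had 0.690 to 3.06 CPM in tumours and 0.707 to 7.73 CPM in glands. None of these passed in either comparison with the glands; of the 17, Timp4 alone did.

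The plasminogen system, whose protease plasmin activates metalloproteinase proenzymes, rose in part in the adenosquamous tumours. There 6 of 12 tested genes rose, 0 fell and 6 did not pass, where 5.01% of all genes rose and 5.36% fell. The median log2 fold change was 2.44, against -0.04 over all genes. Plau, the urokinase activator, had 71.2 and 86.2 CPM in tumours 1a and 1b and 3.89, 13.7 and 6.83 CPM in glands 1, 2 and 3, a 9.02-fold rise (log2 SE 0.50, adjusted p = 0.0232). Serpinb2, an inhibitor of urokinase, had 5.19 and 33.3 CPM there and at most 0.0948 CPM in glands (adjusted p = 0.0226). The plasminogen gene Plg had no count in any library. Over all 4 tumours 0 of 11 passed in edgeR, where 8.47% of all genes did. At unadjusted p under 0.05 were 5 of the 11, where 28.9% of all genes were. Plaur, the urokinase receptor, had the smallest p (log2 3.79, SE 1.14, adjusted p = 0.0816).

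Among activators and binding partners of metalloproteinases, 4 of 13 rose, 1 fell and 8 did not pass in the adenosquamous tumours (median log2 1.49). Of all genes tested there, 5.01% rose and 5.36% fell. Sdc1, a heparan sulfate proteoglycan that Mmp enzymes shed, had 168.8 and 392.6 CPM in tumours 1a and 1b and 5.31, 10.5 and 11.5 CPM in glands (29.0-fold, adjusted p = 0.0183), and Thbs1, a matrix glycoprotein that binds Mmp2 and Mmp9, rose 12.9-fold (adjusted p = 0.0183). Reck, a membrane-anchored inhibitor of metalloproteinases, had 2.55, 2.31, 2.17 and 0.488 CPM in tumours 1a, 1b, 3 and 4 and 8.49, 13.4 and 17.3 CPM in glands 1, 2 and 3. Every tumour was below every gland, and Reck fell by 2.82 on the log2 scale over all tumours (SE 0.59, adjusted p = 0.0318) and by 2.49 in the adenosquamous tumours (adjusted p = 0.0287). Furin, which processes the proenzymes of Mmp11 and Mmp14, had 71.8, 86.5, 96.9 and 76.9 CPM in tumours 1a, 1b, 3 and 4 and 29.4, 42.7 and 31.1 CPM in glands. It rose 2.41-fold over all tumours (log2 SE 0.25, adjusted p = 0.0267). Reck and Furin were the only 2 of 13 to pass there, where 8.47% of all genes did.

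Genes of AP-1 and ETS factors, whose motifs are marked in the promoters printed above, were listed with the RUNX factor genes Runx1 and Runx2, and rose in part: 5 of 16 in the adenosquamous tumours (Fosl2, Junb, Etv4, Etv5 and Runx2), 0 fell and 11 did not pass (median log2 1.74). Of all genes tested there, 5.01% rose. Junb had 65.2, 101.6, 17.6 and 20.1 CPM in tumours 1a, 1b, 3 and 4 and 6.37, 5.64 and 7.25 CPM in glands 1, 2 and 3. It rose 12.4-fold in the adenosquamous tumours (adjusted p = 0.0180). Over all tumours the rise was 7.95-fold (log2 SE 0.70, adjusted p = 0.0429). Junb was the only 1 of 14 to pass over all tumours, where 8.47% of all genes passed. Fosl2 rose 3.40-fold in the adenosquamous tumours (adjusted p = 0.0241). Fosl1 had 16.3 and 8.03 CPM in tumours 1a and 1b, at most 0.662 CPM in tumours 3 and 4 and at most 1.42 CPM in glands, and did not pass. Of 13 tested cytokines and growth factors known to induce metalloproteinase genes, 6 rose in the adenosquamous tumours and 0 fell (median log2 2.34), where 5.01% of all genes rose. Il1b had 11.4 and 22.9 CPM in tumours 1a and 1b, at most 0.279 CPM in tumours 3 and 4 and at most 0.354 CPM in glands (adjusted p = 0.0182), and the growth factor gene Hbegf rose 18.9-fold (adjusted p = 0.0320). Egf lay lower without passing (log2 -2.80, SE 1.23, adjusted p = 0.190).

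**Figure D5:**
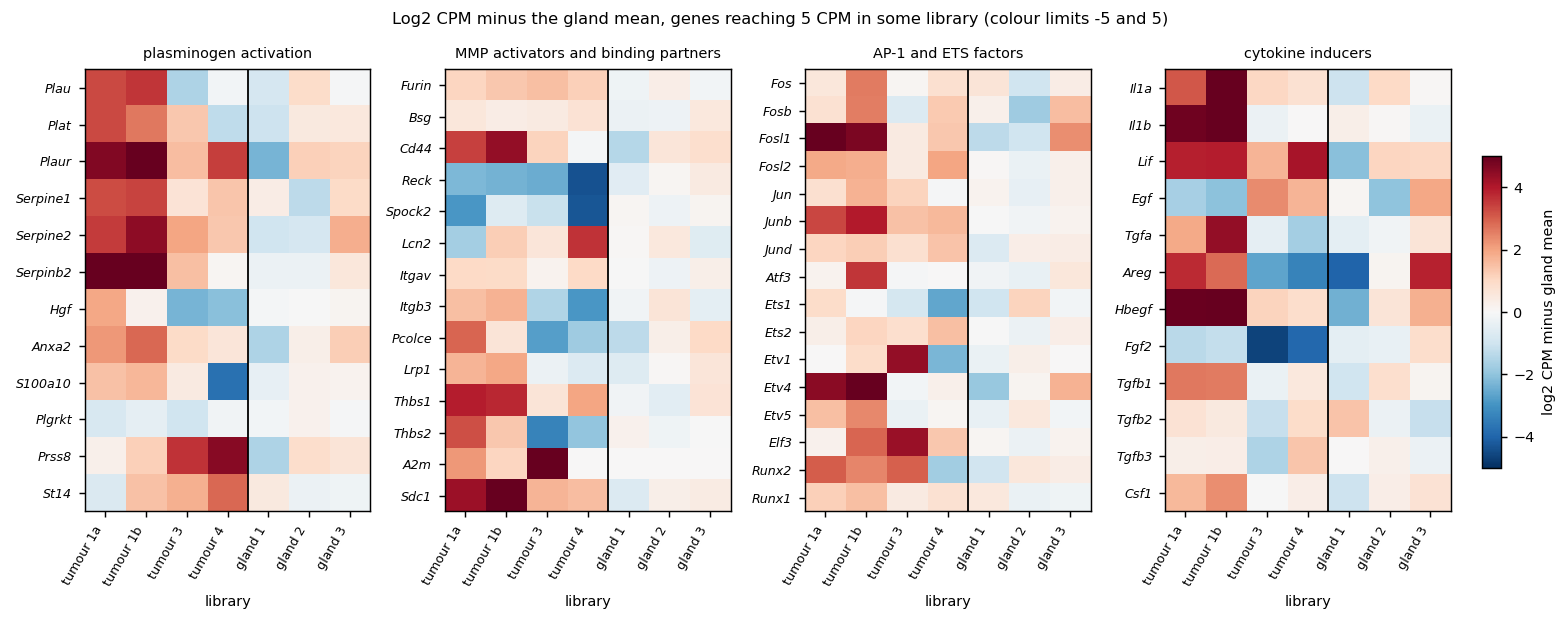
Colour gives log2 CPM minus the gland mean for 4 gene lists, in tumours 1a, 1b, 3 and 4 and then glands 1, 2 and 3; only genes that reach 5 CPM in some library are drawn. Plau, Sdc1, Junb and Il1b are high in tumours 1a and 1b, and Reck is low in all 4 tumours.

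Many genes of matrix proteins that these enzymes cut rose. In the adenosquamous tumours 10 of 17 matrix genes rose, 0 fell and 7 did not pass (median log2 3.06), where 5.01% of all genes rose. Tnc, the tenascin C gene, had 1401 and 720.2 CPM in tumours 1a and 1b, 22.6 and 790.5 CPM in tumours 3 and 4 and 10.3 to 14.7 CPM in glands, and rose in both comparisons with the glands (all tumours log2 5.94, SE 1.28, adjusted p = 0.0349). Dcn, the proteoglycan decorin, did not pass (log2 -1.42, SE 1.14, adjusted p = 0.445). Among ADAM and ADAMTS proteases 2 of 15 rose there, Adamts4 (39.5-fold, adjusted p = 0.0220) and Adam8 (34.3-fold, adjusted p = 0.0258), 0 fell and 13 did not pass. The share that passed in this list was near the 10.4% of all genes. Adamts5 was at log2 -2.02 (adjusted p = 0.132). Among cathepsins and cystatins 3 of 11 rose, Ctsc (3.69-fold, adjusted p = 0.0214), Ctss (13.5-fold, adjusted p = 0.0433) and Ctsa, 0 fell and 8 did not pass, where 5.01% of all genes rose. Over all 4 tumours 8.47% of all genes passed in edgeR. There 1 of 17 matrix genes passed, Tnc, and 0 of 15 ADAM and 0 of 11 cathepsin genes did (2 and 4 at unadjusted p under 0.05). For the ADAM list that is below the 28.9% of all genes.

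Over the 7 libraries, the genes with log2 CPM most like that of Mmp13 among 7885 genes of sufficient level were Specc1, N4bp1, Cd63, Junb and Thbs1, with Pearson r of 0.986, 0.984, 0.982, 0.981 and 0.981. Cd63, a tetraspanin known to bind Timp1, had 78.3, 77.3, 32.6 and 33.8 CPM in tumours 1a, 1b, 3 and 4 and 14.2, 17.2 and 23.8 CPM in glands. Among those most like Mmp14 were Enpp1, Ptgfrn, Bmp1 and Ckap4, with r of 0.981, 0.976, 0.974 and 0.972. Bmp1, a procollagen protease, had 141.7, 115.4, 19.9 and 13.9 CPM in tumours 1a, 1b, 3 and 4 and 6.72, 14.4 and 19.3 CPM in glands. Among the members, Mmp13 was most like Timp1 (r 0.982) and Mmp10 (r 0.957). These values share the same 7 libraries and describe them only.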

How the data were processed

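The deposited tables hold 1 value per gene and library in a column headed TPM. Its sums differ between libraries and 2.34% to 6.14% of values were not whole, so they were taken to be expected counts made by the authors, and were rounded to whole numbers here. STAR 2.5, RSEM 1.3, limma and the build GRCm38 appear in the submitters' processing notes without their roles; the sources used here name no annotation, filter or strand setting. Per the labels' protocols, TruSeq v2 libraries were read as pairs on a HiSeq instrument.

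Genes kept by filterByExpr (minimum count 10, minimum total 15) were tested in R 4.3.3 with edgeR 4.0.16 (TMM scaling, quasi-likelihood test, two-sided), with Benjamini-Hochberg adjustment over all genes kept and a threshold of 0.05. The SE is the log2 fold change divided by the square root of F. DESeq2 1.42.0 and limma 3.58.1 (voom) were alternatives. Positions and lengths are from GENCODE M21 (GRCm38), which held 50376 of 50600 identifiers.

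Groups came from the labels. The labels do not say that libraries came from separate animals in every case (the series text calls them independent), so p-values measure the spread between these libraries. No 2 libraries of a group had identical values, and their counts differed beyond sampling noise (chi-square 85.0 to 374.9 per degree of freedom). Members and lists were chosen with earlier results of these data known. All members were named; of other lists, up to 2 genes that passed, by adjusted p, and 1 with the largest opposite change were named (the lowest p if none passed), and of other family genes those with at least 5 CPM in a library. Other genes named were chosen after their values were seen. Among them were Fosl1, Timp2, S100a8, the named cell type markers, Trpc6, Pgr, Arhgap42 and the Cd63 and Bmp1 levels. Counting intervals are 95%, exact, and cover counting error only. A gene that the naming rule picks is not reported here.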

Additional observations from a re-analysis of the deposited data

Results flagged for a closer look

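In the group of 4 tumours, 4 values stood apart from the other 3 by more than Dixon's 95% limit on the log2 CPM scale, which chance exceeds in about 1 group in 20; 20 genes were examined. Yap1 was at 9.13 log2 CPM in tumour 1a, and Birc2, its neighbour on chromosome 9, at 7.37 log2 CPM in the same tumour. Mmp15 was at 6.12 log2 CPM in the spindle cell tumour. Timp4 was at -3.02 log2 CPM in tumour 1b, a library with no count of it, where the other tumours held 2 to 6 counts. No member was set apart in this way.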

How the results depend on the processing

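The number of members that passed for all 4 tumours against glands, 1 in edgeR, was 4 in DESeq2 (24.1% of all genes), 2 with no filter (2.92%), and 0 in limma-voom, at equal depth, with tumours 1a and 1b summed, or with gland 2 as the only gland (1 to 6 at unadjusted p under 0.05, and 0 for gland 2 alone). Leaving out each library gave 0 to 3. For the adenosquamous tumours against glands, 6 passed, 4 to 7 under the alternatives that keep every library, and 0 to 5 when 1 library was left out. Against the other tumours 0 passed in edgeR (9 at unadjusted p under 0.05), 8 in DESeq2 (9.97% of all genes), 1 (Mmp9) with median-ratio scaling (0.177%) and 9 with no filter (7.39%); the cause was not tested.

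Direction changed only for values that had not passed. Mmp2 over all tumours, 0.24, was -0.50 in limma-voom, -0.36 with gland 2 alone and -0.67 to 0.59 when 1 library was left out; in the adenosquamous comparison it was -0.67 without tumour 1a and up to 1.51. Mmp3 over all tumours was -0.071 in limma-voom and -0.18 to 1.70 when 1 library was left out. Mmp11, likewise, was -1.39 to 0.25 over all tumours and -0.57 to 0.96 in the adenosquamous comparison, with -0.25 without gland 3. Mmp12 against the other tumours was -0.20 without tumour 1b and up to 7.67 without another library. No paired analysis was possible because nothing in the labels links a gland to a tumour. Depth limits Mmp10, Mmp13 and Timp1 in the glands, which held 0, 4 and 26 counts.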
